A study of Mus musculus with 6 samples.

Results

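The synaptic vesicle and release machinery is described here through 47 genes, taken from a list of symbols and matched by symbol among the 23235 genes of the expression table. All 47 had a level of at least 1 FPKM in 1 genotype or both, and 3 of the 320 listed splicing events lay in them. They comprise 12 synaptotagmins, 15 vesicle proteins, 10 SNARE regulators and 10 active zone genes. Neurons release transmitter when calcium enters a nerve terminal and synaptic vesicles fuse with the plasma membrane. SNARE proteins on the vesicle and on the plasma membrane zip together to drive fusion, synaptotagmins sense the calcium, complexins clamp and then assist the SNARE complex, and active zone scaffolds hold primed vesicles near calcium channels. In the hippocampus these proteins are abundant in the terminals of pyramidal, granule and inhibitory neurons, and several of their transcripts are alternatively spliced.

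The RNA came from the hippocampus of 6 adult male mice, 60 to 70 days old, read as paired 50 bp reads. In 3 wildtype mice (Rbfox1 fl/fl; +/+) both Rbfox1 alleles carried loxP sites and no Cre was present. In 3 Nes-cKO mice (Rbfox1 fl/fl; Nes/+) the same floxed alleles were combined with Nestin-driven Cre, which acts in neural progenitors, so that neurons and glia of that lineage lose the gene. The Rbfox1 protein binds RNA, steers exon choice in the nucleus and, from the cytoplasm, sets the level of some messenger RNAs. The comparison asked which transcripts and splice choices differed between the genotypes. Expression is the authors' FPKM, which is scaled to transcript length and to depth, so that levels can be compared between genes. The files used here hold 1 FPKM value and 1 set of pooled splice reads per gene or event and genotype, so that no value below has an error between mice. The total depth of each library is unknown from them.

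Rbfox1 itself stood at 67.5 FPKM in wildtype and 23.0 in Nes-cKO, or 34.0% of wildtype. Markers of hippocampal pyramidal and granule neurons were all detected, and the 12 listed genes summed to 1536 FPKM in wildtype and 1560 in Nes-cKO. The 8 listed oligodendrocyte markers all fell and summed to 1690 and 1153 FPKM. Of 10 cerebellar markers with at least 1 FPKM, 8 rose and none fell, and all 11 listed summed to 41.7 and 85.0 FPKM. Of 7 such markers of neocortical subplate and layer 6 neurons, 4 rose and 1 fell, and all 8 listed summed to 57.2 and 94.8 FPKM. In whole tissue, fewer cells of a type and less RNA per cell cannot be told apart.

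Most release genes had ratios close to 1. Of the 47 genes 5 passed at q under 0.05 by the authors' deposited table, all of them higher in Nes-cKO, against a background of 7.1% of the 12685 tested genes with at least 1 FPKM, of which 4.69% were higher and 2.41% lower. The 5 genes were Syt5, Syt13, Sv2c, Cplx3 and Unc13b, and they make up 10.6% of the members, a share whose difference from the background was not tested. The remaining 42 did not pass, and their log2 ratios of Nes-cKO over wildtype ran from -0.28 to 0.64. The median log2 ratio was 0.10 over the 47 genes and 0.03 over all tested genes, and the median size of the log2 ratio regardless of sign was 0.13 and 0.11. The ratio lay above 1 for 33 members and below 1 for 14, while it lay above 1 for 57.7% of all tested genes. The summed level of the 47 transcripts was 4563 FPKM in wildtype and 4595 in Nes-cKO, 100.7% of wildtype.

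The abundant transcripts were not among those that passed. Of the 12 members with at least 100 FPKM in wildtype none passed, and their log2 ratios lay between -0.28 and 0.27. Of the 22 members between 10 and 100 FPKM, 2 passed, and of the 13 under 10 FPKM, 3 passed. These classes were set after the values were seen. Of all tested genes with at least 1 FPKM 7.1% passed, and their shares within the same classes were not determined. By unadjusted p-values under 0.05 in the authors' deposited table, 6 further members were higher (Syn1, Syn3, Snap91, Stxbp5, Unc13c and Bsn) and 2 were lower (Snap25 and Rims1). With the 5 that passed, 13 members lay under this p, or 27.7%, beside 14.6% of all tested genes, and the difference between these shares was not tested.

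**Figure D1:**
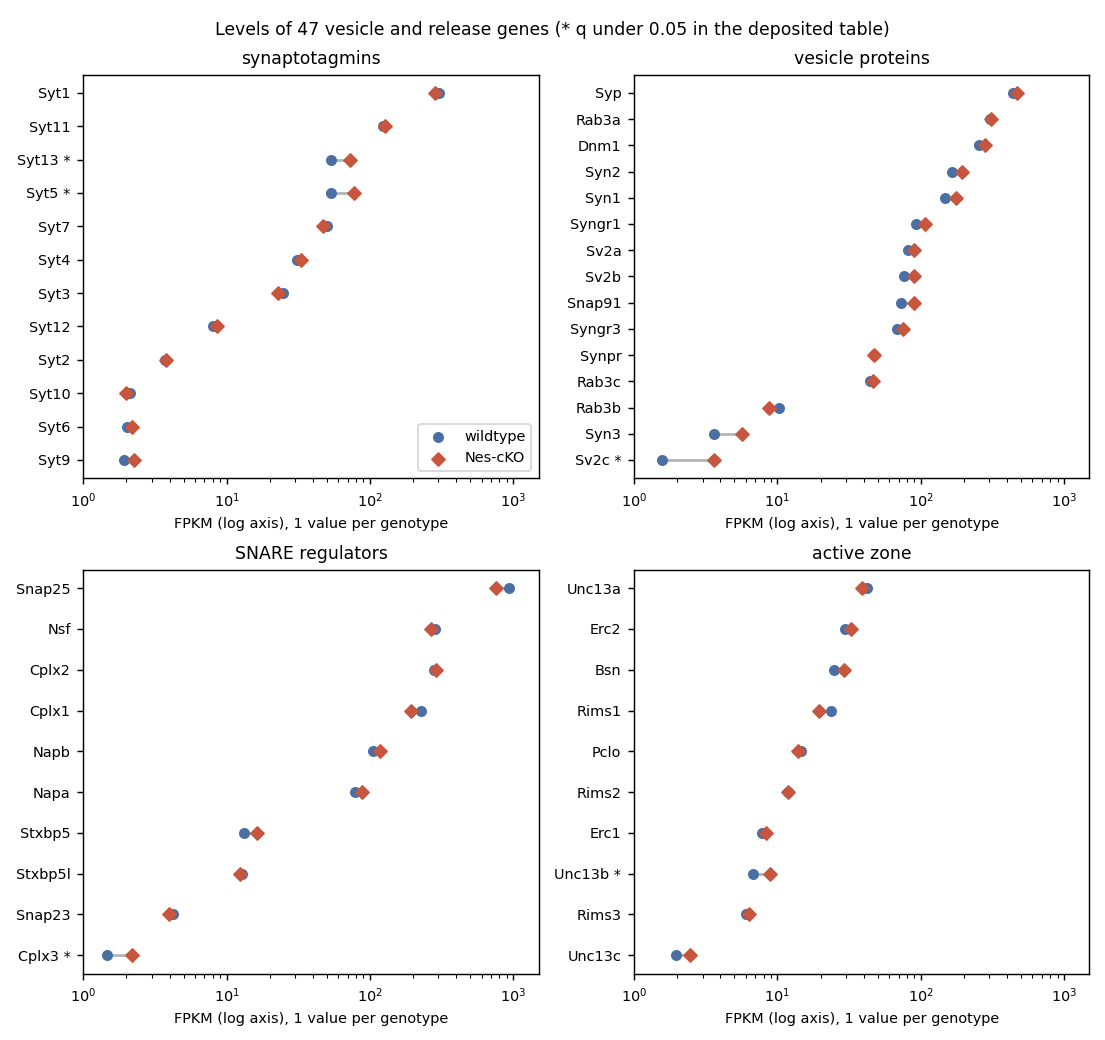
FPKM of each of the 47 genes (log axis) in wildtype (blue circles) and Nes-cKO (red diamonds), 1 value per genotype, ordered by wildtype level within each role; an asterisk marks a q under 0.05 in the authors' deposited table. Snap25 (927 and 762 FPKM) and Syp (437 and 472 FPKM) were the most abundant, and the widest gap on the log axis was that of Sv2c (1.56 and 3.60 FPKM).

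Synaptotagmins are vesicle membrane proteins with C2 domains, of which some bind calcium and others do not. Syt5 and Syt13 rose and the other 10 did not pass, with a median log2 ratio of 0.07 over the 12. Syt5 (mm9 chromosome 7, 4491367 to 4498169), a calcium-binding synaptotagmin associated with dense-core vesicles, stood at 53.1 FPKM in wildtype and 77.9 in Nes-cKO. This is 1.47-fold, a log2 ratio of 0.55 (q = 0.00152 in the authors' deposited table). Syt13 (chromosome 2, 92755258 to 92796208), an atypical synaptotagmin whose C2 domains lack the residues that bind calcium, stood at 53.3 and 72.5 FPKM, 1.36-fold, with a log2 ratio of 0.44 and q = 0.00390 in the authors' deposited table. Both began at nearly the same wildtype level, and both gained by a similar factor.

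Syt1, the calcium sensor of fast synchronous release, was the most abundant synaptotagmin at 301.5 FPKM in wildtype and 283.1 in Nes-cKO (q = 0.920 in the authors' deposited table). Syt11, which does not bind calcium and restrains vesicle retrieval, followed at 122.6 and 126.4 FPKM (q = 0.983 in the authors' deposited table). Syt7, a slow high-affinity sensor of asynchronous release, stood at 50.4 and 47.2 FPKM (q = 0.902 in the authors' deposited table). The remaining 7, Syt2, Syt3, Syt4, Syt6, Syt9, Syt10 and Syt12, had wildtype levels between 1.92 FPKM (Syt9) and 31.1 FPKM (Syt4) and log2 ratios between -0.11 (Syt3) and 0.24 (Syt9).

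The shares within the family, which restate these same values, differed accordingly and were not tested. Syt1 accounted for 46.1% of the summed synaptotagmin FPKM in wildtype and 41.5% in Nes-cKO. The share of Syt5 was 8.11% and 11.4%, that of Syt13 was 8.15% and 10.6%, and that of Syt7 was 7.70% and 6.92%. Syt11 kept a share of 18.7% and 18.5%. The family as a whole summed to 654.5 and 681.8 FPKM, 104% of wildtype.

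The level of Syt1 did not pass, but the use of a pair of its splice sites differed between the pooled libraries. The event is a choice between 3' splice sites that lie 9 bases apart at the start of a coding exon on the minus strand (mm9 chromosome 10, 108073721 to 108073729). Use of the first site adds 9 bases, which keep the reading frame. GENCODE lists 2 transcripts with the added bases, both coding, and 1 without them, which is not coding. The sequence is shown because the event consists of the insertion or omission of this short stretch. Capitals mark the 9 added bases, preceded by the last 30 bases of the upstream exon and followed by 60 further bases of their own exon, which lies at chr10:108636551-108636673 on the minus strand of GRCm38, as read from the GENCODE vM21 transcript Syt1-201.
Syt1 extended exon: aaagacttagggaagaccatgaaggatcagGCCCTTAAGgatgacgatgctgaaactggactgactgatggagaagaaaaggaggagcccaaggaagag

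The extended form of Syt1 was used more in Nes-cKO. The authors' inclusion ratio of the 9 bases, the share of transcripts that hold them, was 70.2% in wildtype and 88.7% in Nes-cKO, 18.5 percentage points higher. Reads that skip the 9 bases numbered 751 and 265, while reads that join them to the rest of their exon numbered 1909 and 2320. Reads that join them to the upstream exon were few in both genotypes, at 28 and 32, so that the 2 inclusion junctions of this short segment were counted very unequally. With the mean of both inclusion junctions against the skipping reads, inclusion rose from 56.3% (95% Wilson interval 54.0 to 58.7, 1720 reads) to 81.6% (79.5 to 83.5, 1441 reads). The two-sided Fisher's exact test of these pooled reads gave an adjusted p of 7.39e-52 over the 31 listed events of this type, of which 19.4% passed. It compares the pooled libraries and holds counting error only, since variation between mice does not enter it.

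Which junctions are counted sets the level of Syt1 inclusion but not its direction. From the sum of both inclusion junctions it was 72.1% and 89.9%, and from the smaller one alone 3.59% and 10.8%, with adjusted p-values of 1.40e-61 and 0.000393 by Fisher's exact test. Reads assigned to the 9 bases themselves numbered 1997 in wildtype and 2421 in Nes-cKO. A 50 bp read is longer than these 9 bases, so such reads largely repeat the inclusion junction reads and are no separate measure. Over the same libraries the reads on the exon downstream of the 9 bases numbered 7349 and 6820, and those on the upstream exon 7447 and 6342. The flanking exons thus had fewer reads in Nes-cKO while the added bases had more.

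Vesicle proteins include the Sv2 glycoproteins, the synapsins that tether vesicles to one another, the four-pass proteins of the synaptophysin family, the Rab3 GTPases, and the retrieval proteins Snap91 and Dnm1. Of these 15 genes 1 rose and 14 did not pass, a share passing of 6.67% beside 7.1% of all tested genes. Their median log2 ratio of 0.13 was the highest of the 4 roles, beside 0.03 over all tested genes. Of the 15 ratios 14 lay above 1, beside 57.7% of all tested genes, and this difference was not tested. Their summed level was 1807 FPKM in wildtype and 1989 in Nes-cKO, 110% of wildtype.

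The gene that rose was Sv2c (chromosome 13, 96729398 to 96902532), the scarcest here of the Sv2 vesicle glycoproteins, which botulinum neurotoxin A uses as receptors. It stood at 1.56 FPKM in wildtype and 3.60 in Nes-cKO, 2.31-fold, with a log2 ratio of 1.21 and q = 0.00152 in the authors' deposited table. Its abundant paralogs Sv2a, the target of the antiseizure drug levetiracetam, and Sv2b stood at 81.5 and 89.4 FPKM and at 76.4 and 89.4 FPKM, and neither passed. The share of Sv2c in the summed Sv2 level was 0.977% in wildtype and 1.98% in Nes-cKO. It remained a minor form beside the other two.

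The abundant vesicle proteins stayed close to wildtype. Syp, the major four-pass protein of the vesicle membrane, stood at 436.7 and 471.7 FPKM (q = 0.868 in the authors' deposited table). Rab3a, a GTPase that brings vesicles to the active zone, stood at 305.0 and 307.4 FPKM (q = 0.997 in the authors' deposited table). Rab3a accounted for 84.9% and 84.8% of the summed Rab3 level, and Rab3b was the vesicle protein whose ratio lay below 1, at 10.3 and 8.73 FPKM.

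The 3 synapsin genes all had ratios above 1 without passing. Syn1 stood at 146.6 and 176.2 FPKM and Syn2 at 164.0 and 192.8 FPKM (q = 0.319 and 0.362 in the authors' deposited table). Syn3, a low-level synapsin of young neurons, stood at 3.62 and 5.63 FPKM, a log2 ratio of 0.64 (q = 0.0595 in the authors' deposited table). It had the greatest ratio of the members that did not pass. The span of the Syn3 locus overlaps those of Timp3 and 4930486F22Rik. Strands and exons were not compared, so whether reads could be shared was not determined. In all, 9 members overlap another gene of the table, among them Syn1, Syn2 and Syt1 and none of the 5 that rose. Synpr, a synaptophysin relative of mossy fibre terminals, stood at 47.3 and 47.5 FPKM. The remaining genes Syngr1, Syngr3, Rab3c, Snap91 and Dnm1 had log2 ratios between 0.07 (Rab3c) and 0.30 (Snap91).

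Dnm1, the neuronal dynamin that pinches vesicles off the membrane after release, stood at 255.8 and 279.8 FPKM and had a listed cassette event whose measures differ from one another. The exon of 139 bases (mm9 chromosome 2, 32190202 to 32190340, minus strand) lies between exons of 68 and 87 bases. GENCODE vM21 lists a second coding exon of 139 bases between the same neighbours, and of its transcripts 5 hold the listed exon, 3 hold the alternative and none holds both. The pair is shown because the listed ratio concerns only one of them; capitals mark the 39 bases that differ, and 71.9% of the bases are equal. Both are on the minus strand of GRCm38, the listed exon at chr2:32334682-32334820 from Dnm1-202 and the alternative at chr2:32333066-32333204 from Dnm1-201.
Dnm1 listed exon: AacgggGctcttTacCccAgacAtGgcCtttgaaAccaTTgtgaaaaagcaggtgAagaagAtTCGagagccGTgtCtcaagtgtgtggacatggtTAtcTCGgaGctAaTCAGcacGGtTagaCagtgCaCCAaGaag
Dnm1 alternative exon: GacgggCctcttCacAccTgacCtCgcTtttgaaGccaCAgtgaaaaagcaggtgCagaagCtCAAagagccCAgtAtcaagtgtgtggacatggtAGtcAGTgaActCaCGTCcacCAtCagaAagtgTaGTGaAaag

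The authors' inclusion ratio of the listed Dnm1 exon was 66.3% in wildtype and 55.4% in Nes-cKO, 10.9 percentage points lower and just past the 10 points that put an event on the list. By the junction reads, direct skipping of the exon was rare in both genotypes. The inclusion junctions held 1373 and 1429 reads in wildtype and 1104 and 1214 reads in Nes-cKO, against 10 and 18 skipping reads. This is an inclusion of 99.3% (98.7 to 99.6, 1411 reads) and 98.5% (97.6 to 99.0, 1177 reads), and the difference did not pass Fisher's exact test (p = 0.0555, adjusted p = 0.124 over 249 cassette events, of which 24.1% passed). Skipping here means joining the 68-base exon directly to the 87-base exon, and reads into the alternative exon are not in the columns used here. GENCODE lists no transcript with that direct join, so these percentages cannot show a switch to the alternative exon.

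Read coverage of the Dnm1 region was uneven in both genotypes. The listed exon had 64.4% of the mean coverage of its neighbours in wildtype and 57.5% in Nes-cKO. The 87-base exon downstream had a coverage of 4613 and 4295, against 1748 and 1569 on the 68-base exon upstream. The listed exon lay between them, at 2049 and 1685.

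SNARE regulators act on the fusion complex: Snap25 and Snap23 are SNAREs of the plasma membrane, complexins bind the assembled complex, tomosyns (Stxbp5 and Stxbp5l) occupy its place and hold release back, and Nsf with its adaptors Napa and Napb takes spent complexes apart. Of these 10 genes 1 rose and 9 did not pass, with a median log2 ratio of 0.00108 and 5 ratios on either side of 1. Their summed level was 1933 FPKM in wildtype and 1752 in Nes-cKO, 90.7% of wildtype. Most of this difference lay in Snap25, which did not pass, and without it the other 9 genes summed to 1006 and 991 FPKM.

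Cplx3 (chromosome 9, 57447799 to 57454088) was the gene that rose, from 1.47 to 2.17 FPKM. It is a complexin best known from retinal ribbon synapses and, in the neocortex, from subplate neurons. The rise was 1.48-fold, a log2 ratio of 0.57 (q = 0.0352 in the authors' deposited table). Cplx3 remained a trace among the complexins, with 0.289% of their summed FPKM in wildtype and 0.447% in Nes-cKO. The main complexins Cplx1 and Cplx2 stood at 226.7 and 194.7 FPKM and at 279.9 and 289.2 FPKM, and neither passed. Cplx1 accounted for 44.6% of the complexin level in wildtype and 40.1% in Nes-cKO.

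Snap25, the most abundant of the 47 transcripts and the 24th most abundant of all genes in wildtype, stood at 927.2 FPKM in wildtype and 761.5 in Nes-cKO, 82.1% of wildtype. Its log2 ratio of -0.28 was the lowest of the members, with an unadjusted p of 0.0233 and q = 0.204 in the authors' deposited table. Nsf, the ATPase that recycles SNAREs, stood at 283.2 and 266.7 FPKM (q = 0.924 in the authors' deposited table). Stxbp5 stood at 13.2 and 16.3 FPKM, a log2 ratio of 0.31 (q = 0.108 in the authors' deposited table). The other members Snap23, Napa and Napb had log2 ratios between -0.09 and 0.16.

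Stxbp5l, or tomosyn-2, stood at 12.8 and 12.4 FPKM (q = 0.983 in the authors' deposited table), while 1 of its exons was included more. The cassette exon of 72 bases (mm9 chromosome 16, 37186737 to 37186808, minus strand) keeps the reading frame, and GENCODE vM21 lists 3 transcripts with it and 3 without it, of which 2 each are coding. The sequence is shown because the exon holds TGCATG, the hexamer that Rbfox proteins bind, at its bases 9 to 14, in capitals. The exon lies at chr16:37186651-37186722 on the minus strand of GRCm38 and was read from Stxbp5l-204.
Stxbp5l exon: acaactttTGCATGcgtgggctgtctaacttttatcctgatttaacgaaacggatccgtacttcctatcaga

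Of 1253 internal exons of 72 bases in GENCODE coding transcripts, 1.04% hold TGCATG in the transcript sequence and 5.11% hold the shorter GCATG, which every TGCATG contains. Neither the 123-base extended exon of Syt1 nor either of the 139-base exons of Dnm1 holds GCATG. These are matches of letters within the exons alone, and the introns around them were not searched.

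Inclusion of the Stxbp5l exon by the authors' ratio was 62.7% in wildtype and 88.3% in Nes-cKO, 25.6 percentage points higher. The 2 inclusion junctions held 37 and 38 reads in wildtype and 53 and 58 reads in Nes-cKO, and skipping reads numbered 24 and 9. From these reads inclusion rose from 61.3% (48.8 to 72.4, 62 reads) to 86.2% (75.7 to 92.5, 65 reads), with an adjusted p of 0.0134 by Fisher's exact test over the 249 cassette events. Of these 249 events 24.1% passed. The reads come from the same pooled libraries whose change put the event on the list. The test and the intervals hold counting error only, since variation between mice does not enter them. Reads on the exon itself numbered 105 and 166, and its coverage was 96.4% of the mean of its neighbours in wildtype and 139% in Nes-cKO. This event rests on far fewer reads than those of Syt1 and Dnm1.

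**Figure D2:**
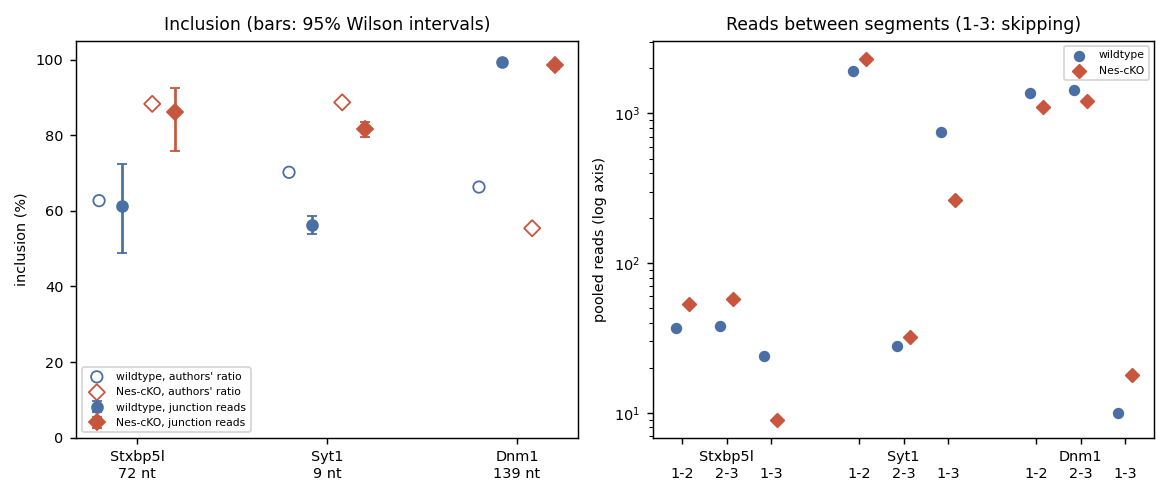
Left, inclusion in percent of the 3 events in release genes, as the authors' ratio (open symbols) and from pooled junction reads (filled symbols, bars are 95% Wilson intervals of counting error); right, pooled reads (log axis) joining segments 1 and 2, 2 and 3, and 1 and 3, the last being skipping, numbered as in the authors' tables from the downstream exon. Inclusion was higher in Nes-cKO for Stxbp5l and Syt1 by either measure, while for Dnm1 the ratio was 66.3% and 55.4% and the junction reads gave 99.3% and 98.5%. The Dnm1 junction reads leave out the alternative exon.

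Active zone genes encode the priming factors of the Unc13 (Munc13) family, the Rims, and the large scaffolds Bsn (bassoon), Pclo (piccolo), Erc1 and Erc2. Of these 10 genes 1 rose and 9 did not pass, with a median log2 ratio of 0.08 and summed levels of 169 and 172 FPKM. Unc13b, or Munc13-2 (chromosome 4, 43071856 to 43277759), which primes vesicles at a subset of hippocampal synapses, rose from 6.76 to 8.88 FPKM. This is 1.31-fold, a log2 ratio of 0.39 (q = 0.0259 in the authors' deposited table).

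The Unc13 family as a whole kept its summed level, at 51.0 and 50.3 FPKM, while the shares of its genes differed, which was not tested. Unc13a, or Munc13-1, the main priming factor of glutamatergic terminals, stood at 42.2 and 39.0 FPKM (q = 0.851 in the authors' deposited table) and made up 82.9% of the family in wildtype and 77.5% in Nes-cKO. The share of Unc13b was 13.3% and 17.6%. Unc13c, or Munc13-3, best known from cerebellar granule cells, stood at 1.95 and 2.44 FPKM, a log2 ratio of 0.33 (q = 0.188 in the authors' deposited table).

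Erc2, a scaffold that binds Rims, was second among the active zone genes in wildtype at 29.4 FPKM and stood at 32.6 FPKM in Nes-cKO (q = 0.707 in the authors' deposited table). Rims1, which links Rab3 on vesicles to calcium channels, stood at 23.5 and 19.5 FPKM, a log2 ratio of -0.27 (q = 0.214 in the authors' deposited table). Its share of the summed Rims level was 56.7% in wildtype and 51.8% in Nes-cKO. The giant scaffolds Bsn and Pclo stood at 24.8 and 29.2 FPKM and at 14.6 and 13.9 FPKM, on opposite sides of a ratio of 1. Rims2, Rims3 and Erc1 had log2 ratios between -0.01 and 0.08.

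**Figure D3:**
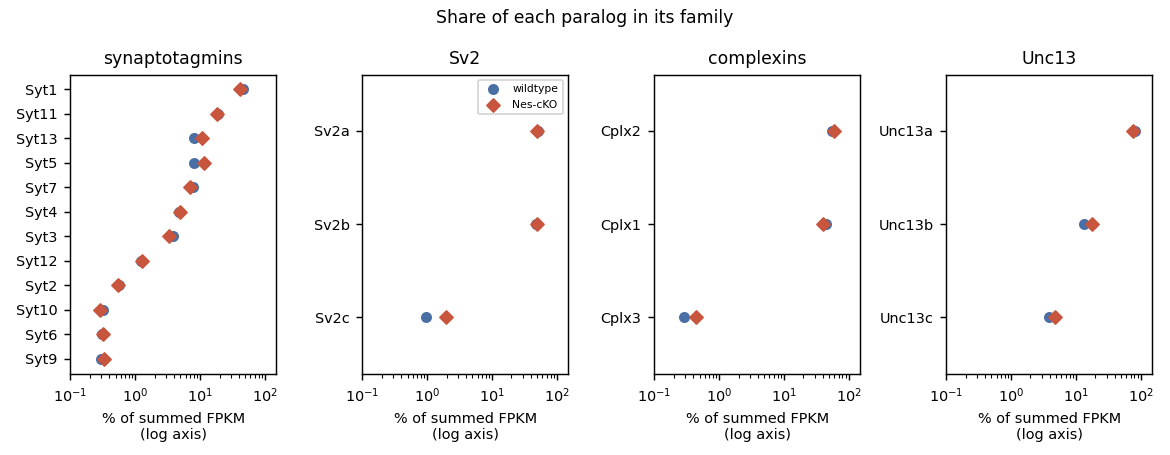
Share of each gene in the summed FPKM of its family, in percent on a log axis, for synaptotagmins, Sv2, complexins and Unc13, 1 value per genotype. The genes that rose took larger shares in Nes-cKO, such as Syt5 with 8.11% and 11.4% and Unc13b with 13.3% and 17.6%, and each stayed below the leading gene of its family. The shares restate the same FPKM values and were not tested.

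Most other textbook genes of the same machinery did not pass either. Of 77 listed, 74 had at least 1 FPKM, and 6 rose, 2 fell and 66 did not pass, a share of 10.8% against the same background of 7.1%. Their median log2 ratio was 0.06. The list was written with earlier results of these data known.

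Among the transporters and other vesicle proteins, 2 rose and 1 fell of 24. Slc17a7, the transporter that fills vesicles with glutamate, rose from 372.7 to 490.1 FPKM (q = 0.0195 in the authors' deposited table). Rph3a, or rabphilin, an effector of Rab3, fell from 81.5 to 62.6 FPKM (q = 0.0202 in the authors' deposited table). Both were of high or moderate level, unlike Sv2c and Cplx3.

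Of 13 other SNARE genes and regulators, 1 fell and 12 did not pass. Vamp1, a vesicle SNARE of parvalbumin interneurons and spinal cord neurons, fell from 41.9 to 22.0 FPKM (q = 0.00152 in the authors' deposited table). Vamp2, its paralog and the main vesicle SNARE of the forebrain, stood at 404.7 and 436.3 FPKM (q = 0.880 in the authors' deposited table). Cadps, which primes dense-core vesicles, held a listed exon of 147 bases (mm9 chromosome 14, 13290197 to 13290343). Its inclusion from pooled junction reads fell from 63.9% (59.8 to 67.8, 554 reads) to 50.3% (46.0 to 54.5, 529 reads). The adjusted p was 0.000104 by Fisher's exact test over the 249 listed cassette events, of which 24.1% passed. The inclusion junctions of Cadps were unequal, with 220 and 487 reads in wildtype and 155 and 376 in Nes-cKO. Vamp1 held a listed retained intron, whose inclusion from junction reads rose from 22.5% (19.2 to 26.2, 533 reads) to 37.5% (31.9 to 43.4, 267 reads), with an adjusted p of 5.91e-05 by Fisher's exact test over the 5 listed introns, of which 60% passed. Reads into this intron numbered 99 and 140 at its ends in wildtype and 79 and 121 in Nes-cKO. Spliced reads numbered 413 and 167, so that both kinds were fewer in Nes-cKO. No other event of the tables carried the symbol of a gene in this wider list.

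Of 15 other active zone scaffolds only Rimbp2 passed, from 20.4 to 38.4 FPKM, a log2 ratio of 0.91 (q = 0.00152 in the authors' deposited table). The Rimbp2 protein tethers calcium channels to Rims. Of 22 genes of vesicle endocytosis, 3 rose and none fell, with a median log2 ratio of 0.12. Cltb, a light chain of clathrin, rose from 59.4 to 76.8 FPKM (q = 0.0317 in the authors' deposited table). The AP-2 adaptor subunits Ap2a2 and Ap2b1, which link clathrin to vesicle cargo, rose from 45.1 to 60.5 FPKM and from 70.3 to 90.7 FPKM (q = 0.00795 and 0.0246 in the authors' deposited table). By comparison Snap91, the neuronal clathrin adaptor AP180, stood at 72.8 and 89.5 FPKM (q = 0.124 in the authors' deposited table).

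**Figure D4:**
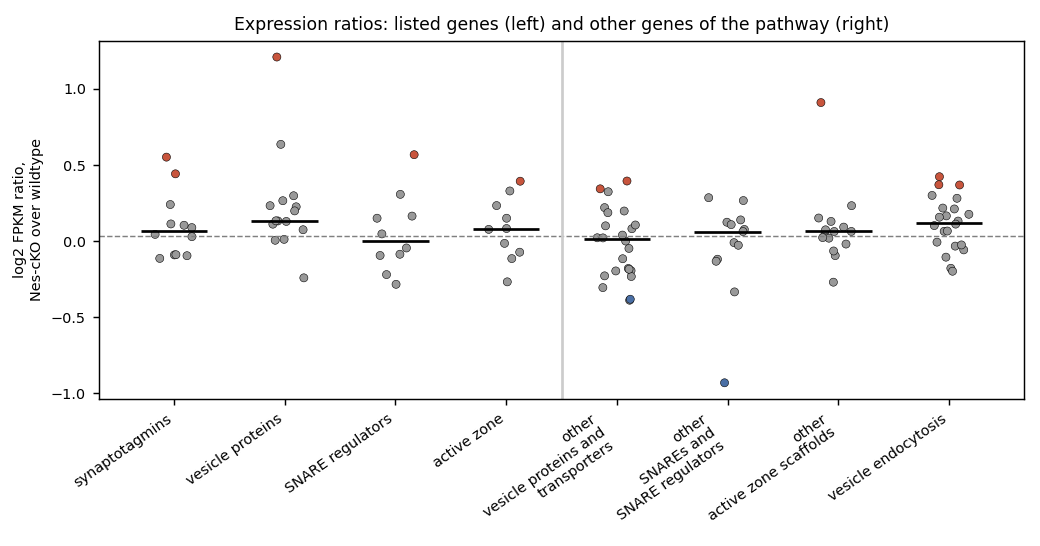
Log2 FPKM ratio of Nes-cKO over wildtype for the 47 listed genes by role (left of the grey line) and for 74 other genes of the pathway (right); red points rose and blue points fell at a q under 0.05 in the authors' deposited table, grey points did not pass, black bars are medians and the dashed line is the median of all tested genes, 0.03. The 5 red points on the left reach from 0.39 to 1.21, and most grey points lie within 0.3 of the dashed line.

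Markers of some other regions were also higher in Nes-cKO, while those of thalamus had a median log2 ratio of -0.34. Of the 11 listed cerebellar markers none was listed at 0, and of the 10 with at least 1 FPKM 8 rose, with a median log2 ratio of 1.25. Gabra6, a GABA receptor subunit of granule cells, stood at 3.51 and 10.5 FPKM, and Cbln3, their secreted cerebellin, at 3.98 and 11.4 FPKM. The 7 subplate and layer 6 markers had a median log2 ratio of 0.42, and of these Rprm stood at 15.9 and 46.6 FPKM, Nxph4 at 0.532 and 1.41 FPKM and Ctgf at 2.66 and 4.14 FPKM. On the same list Moxd1 fell from 3.18 to 2.18 FPKM, and the layer 6 transcription factor genes Tbr1 and Tle4 did not pass, at 0.985 and 1.06 times their wildtype levels. The part of the cerebellar, subplate and layer 6 markers in the rise of the 5 genes was not tested. Markers of hippocampal pyramidal and granule neurons had a median log2 ratio of 0.11, with Neurod2 and Slc17a7 higher and Fibcd1 lower of 12.

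Markers of interneurons, thalamus and glia gave a mixed picture. Of 10 markers of parvalbumin interneurons 3 fell, Vamp1, Scn1a and Scn4b, and none rose. Vamp1 is also one of the release genes above. The other 7 did not pass. Of the 10 ratios 8 lay below 1 and 2 above, those of Pvalb (29.3 and 33.1 FPKM) and Gad1 (82.2 and 93.0 FPKM). Of 7 thalamic markers 3 fell (Lhx9, Prkcd and Ntng1) and 1 rose (Calb2). Of 8 astrocyte markers 2 rose, Gfap and Aqp4, and none fell. The 8 oligodendrocyte markers stood together at 68.2% of wildtype. The part of these markers in the levels of the release genes was not tested.

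**Figure D5:**
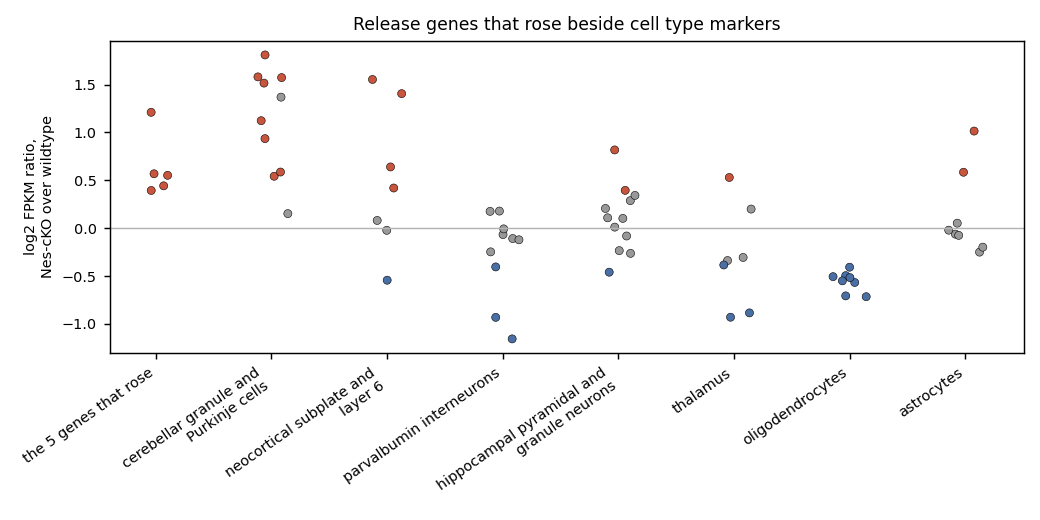
Log2 FPKM ratio of Nes-cKO over wildtype for the 5 release genes that rose and for the cell type markers with at least 1 FPKM in 1 genotype or both, by list; red points rose, blue points fell and grey points did not pass, at q under 0.05 by the authors' deposited table. The 5 genes lie between 0.39 and 1.21, the cerebellar markers between 0.15 and 1.81, and all 8 oligodendrocyte markers below -0.4.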

How the data were processed

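Hippocampal RNA of 3 wildtype and 3 Nes-cKO mice was sequenced from stranded, polyadenylated libraries, as the labels' protocols state. CASAVA, Cufflinks, Cuffdiff and mm9 are named in the submitters' processing notes. Versions and the aligner are not given in the sources used here. Groups were taken from the sample titles.

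Per the file headers, the gene table holds a single FPKM per gene for each genotype, beside the authors' deposited p-values and q-values. No test of expression was run here, and the deposited q of 0.05 was the threshold. Log2 ratios are of the deposited FPKM with no pseudocount. Per the file headers, the 4 SpliceTrap tables hold inclusion ratios as fractions, junction read counts, exon sizes and exon coverage, a signal, per genotype. They list only events past 10 percentage points of change, so that shares of events passing are not rates over all exons. The junction reads come from the same pooled libraries as that change. Their p-values and intervals therefore describe events already chosen for a difference. The authors' deposited p-values for these events were not used. Exon reads are coverage times exon size divided by 51, which was whole to within 0.02 reads for 100% of values. Inclusion reads, the rounded mean of the 2 inclusion junctions, were set against skipping reads with Fisher's exact test (two-sided), adjusted by Benjamini and Hochberg within each of the 4 event types. Intervals are 95% Wilson intervals and, like these p-values, cover counting error only. Cassette events had a median of 83 such reads in each genotype. The number of mice and the unknown depth limit precision.

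The members and lists were chosen with earlier results of these data known. Values in full are given for members past the threshold, members with a listed event, and in each role the 2 most abundant and the 2 with the greatest log2 ratio by size. For the wider pathway these are the genes past the threshold. A gene that this rule selects is not reported here. Other values, the classes by level and the family shares were added after the values were seen. Exon sequences are from GENCODE vM21 transcripts (GRCm38), matched by gene and by the sizes of neighbouring exons. No coordinates were converted. Other thresholds, pseudocounts, FPKM minimums and junction rules were tried. Python 3.11.15, numpy 2.4.6, pandas 2.3.3, scipy 1.17.1 and matplotlib 3.10.9 were used.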

Additional observations from a re-analysis of the deposited data

How the results depend on the processing

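At a q of 0.01 the number of members that were higher went from 5 to 3 (Syt5, Syt13 and Sv2c), and at a minimum of 5 FPKM also to 3 (Syt5, Syt13 and Unc13b), since Sv2c and Cplx3 lie under it. At a q of 0.01 the other pathway genes went from 6 to 2 higher and from 2 to 1 lower. At a q of 0.1 Syn3 joined the members that were higher, and none was lower at any setting tried. The ratios of the 5 genes kept their direction with pseudocounts of 0.1 and 1 and after centring on all tested genes; with a pseudocount of 1 that of Sv2c went from 1.21 to 0.85 and that of Cplx3 from 0.57 to 0.36. The median of the SNARE regulators, near 0, was -0.03 after centring. The 3 splicing events kept their direction and their side of the threshold with the sum or the smaller of both inclusion junctions and with adjustment over all 4 event types. For Dnm1 every one of these rules leaves out the alternative exon. No paired analysis was possible because the tables used hold 1 value per genotype, and for the same reason leaving out each mouse in turn was not run. Spread between mice is therefore not analysed here, and Cplx3, Sv2c and Stxbp5l rest on low levels or few reads.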
